A study of Mus musculus with 3 samples.

Results

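Nppa and Nppb encode the natriuretic peptides ANP and BNP, and they lie side by side on the + strand of mouse chromosome 4. In mm9, Nppb (ENSMUSG00000029019.8) lies at chr4:147359897-147361314 and Nppa (ENSMUSG00000041616.9) at chr4:147374831-147376188, with their starts 14.9 kb apart. The peaks described here are those whose midpoint fell within 100 kb of the body of either gene in GENCODE M1 (mm9), 7 of 4418 peaks in the NKX2-5 ChIP library S1 and 6 of 5441 in the library S4. Both libraries came from the same kind of sample, fixed hearts of wild-type Parkes mouse embryos at E11.5, immunoprecipitated with the NKX2-5 antibody N-19 and sequenced (ChIP-seq). An Input library of genomic DNA was not analysed here. No treatment, mutant or second stage was included, and the labels do not say whether S1 and S4 came from separate pools of hearts. Peaks, the regions enriched over background, were listed separately for S1 and S4, each with a position and a score. The score is the caller's p-value as -log10 multiplied by 10, and it is not scaled between libraries. The lists hold no read numbers, so the depth behind each score is unknown, and they give no expression by which the tissue could be checked. No test between groups was possible with 1 condition, and the comparison made was between the duplicate lists.

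ANP and BNP are secreted by heart muscle and act through the receptor NPR1, a guanylyl cyclase that raises cyclic GMP in kidney and blood vessels. In the embryo Nppa marks the working muscle of the atria and ventricles as the chambers form, while Nppb is also transcribed in chamber muscle. The Nppa promoter is a textbook target of NKX2-5, which acts there with GATA and T-box factors.

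The start sites of both genes lay inside peaks of both libraries. An S1 peak lay over the start of 2.35% of 22350 protein-coding genes, an S4 peak over 3.72%, and peaks of both over 238 (1.06%). The 250 bases before each start site were covered whole by a peak in S1 and in S4, and they are shown because they differ in their AAGTG matches. In the sequences below, read 5′ to 3′ on the + strand of mm9, capitals mark the NKX2-5 core AAGTG and the MEIS1 core TGACA on either strand (CACTT and TGTCA when read from the other strand).
Nppa promoter, chr4:147374581-147374830: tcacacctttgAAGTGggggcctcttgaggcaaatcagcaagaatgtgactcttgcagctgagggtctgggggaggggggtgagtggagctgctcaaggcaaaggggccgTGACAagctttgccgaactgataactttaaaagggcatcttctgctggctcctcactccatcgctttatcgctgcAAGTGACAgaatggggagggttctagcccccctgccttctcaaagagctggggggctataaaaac
Nppb promoter, chr4:147359647-147359896: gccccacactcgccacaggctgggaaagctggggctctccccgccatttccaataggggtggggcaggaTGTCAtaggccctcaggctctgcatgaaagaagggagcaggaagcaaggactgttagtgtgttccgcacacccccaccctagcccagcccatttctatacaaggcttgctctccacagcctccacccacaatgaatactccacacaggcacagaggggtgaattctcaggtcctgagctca

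The Nppa promoter held 2 AAGTG cores. The first lay 239 to 235 bp upstream of the start, in the longer form TNAAGTG and close to a T-box match (GGTGTGA, here on the opposite strand) 250 to 244 bp upstream. The second lay 65 to 61 bp upstream within AAGTGACA, in which the NKX2-5 and MEIS1 cores overlap. GATAA, the core of GATA factor sites, was found 121 to 117 bp upstream and, on the opposite strand, 75 to 71 bp upstream. Among all 22350 protein-coding promoters of the same length, 40.0% held AAGTG, 9.85% held TNAAGTG, 1.04% held AAGTGACA, 21.5% held GATAA and 3.19% held GGTGTGA.

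The 250 bases before the GENCODE start of Nppb held no AAGTG on either strand and 1 TGACA. The RefSeq start of Nppb lies 112 bp downstream of the GENCODE start, whereas the Nppa starts coincide. The 250 bases before the RefSeq start also held no AAGTG. They held 1 TEAD factor match (GGAATG) and 2 GATAA matches between 105 and 79 bp upstream of it, a stretch that GENCODE M1 places in the 5′ UTR. Among all 22350 protein-coding promoters of 250 bp, taken before GENCODE starts, 11.4% held GGAATG and 21.5% held GATAA. The stretch is shown with these 3 matches in capitals. Its ends were set by the matches, so it was chosen with their positions known.
Nppb element, chr4:147359904-147359930: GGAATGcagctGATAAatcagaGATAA

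Both libraries also had a pair of intergenic peaks upstream of Nppb. For each, 300 bases around the middle of the stretch covered by both libraries are shown on the + strand of mm9, with the same capitals as in the promoters.
20 kb upstream of Nppb, chr4:147339941-147340240: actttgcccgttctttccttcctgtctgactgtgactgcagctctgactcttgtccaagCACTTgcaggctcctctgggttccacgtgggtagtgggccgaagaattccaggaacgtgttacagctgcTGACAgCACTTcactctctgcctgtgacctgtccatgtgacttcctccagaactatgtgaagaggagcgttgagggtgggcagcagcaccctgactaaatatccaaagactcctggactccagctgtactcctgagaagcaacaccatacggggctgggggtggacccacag
16 kb upstream of Nppb, chr4:147343468-147343767: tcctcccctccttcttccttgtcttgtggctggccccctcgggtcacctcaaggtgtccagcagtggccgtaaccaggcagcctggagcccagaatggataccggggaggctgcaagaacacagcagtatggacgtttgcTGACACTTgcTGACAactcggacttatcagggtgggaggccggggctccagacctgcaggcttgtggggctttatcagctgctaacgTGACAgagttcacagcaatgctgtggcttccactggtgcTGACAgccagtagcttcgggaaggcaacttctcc

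The 13 peaks formed a compact cluster around the gene pair. S1 peaks spanned 40.7 kb and S4 peaks 42.9 kb, from upstream of Nppb to the 3′ end of Clcn6, a chloride-proton exchanger gene on the opposite strand. No peak lay in the remainder of the 216 kb window, and the next peaks on the chromosome were 2700 kb before and 728 kb after the cluster in S1, and 2550 kb before and 703 kb after it in S4. Unknown bases made up 7.42% of the empty stretch before the cluster in S1 and 0% of the one after it. How well short reads could be aligned to the known bases there was not measured. No peak reached a start site of the neighbours Mfn2, Plod1, 2510039O18Rik, Clcn6, Agtrap and 2610109H07Rik, whose nearest S1 midpoints were 25.0 to 125 kb from their starts. The start of Gm13054, a noncoding transcript antisense to Nppa, lay inside peaks of both libraries.

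**Figure D1:**
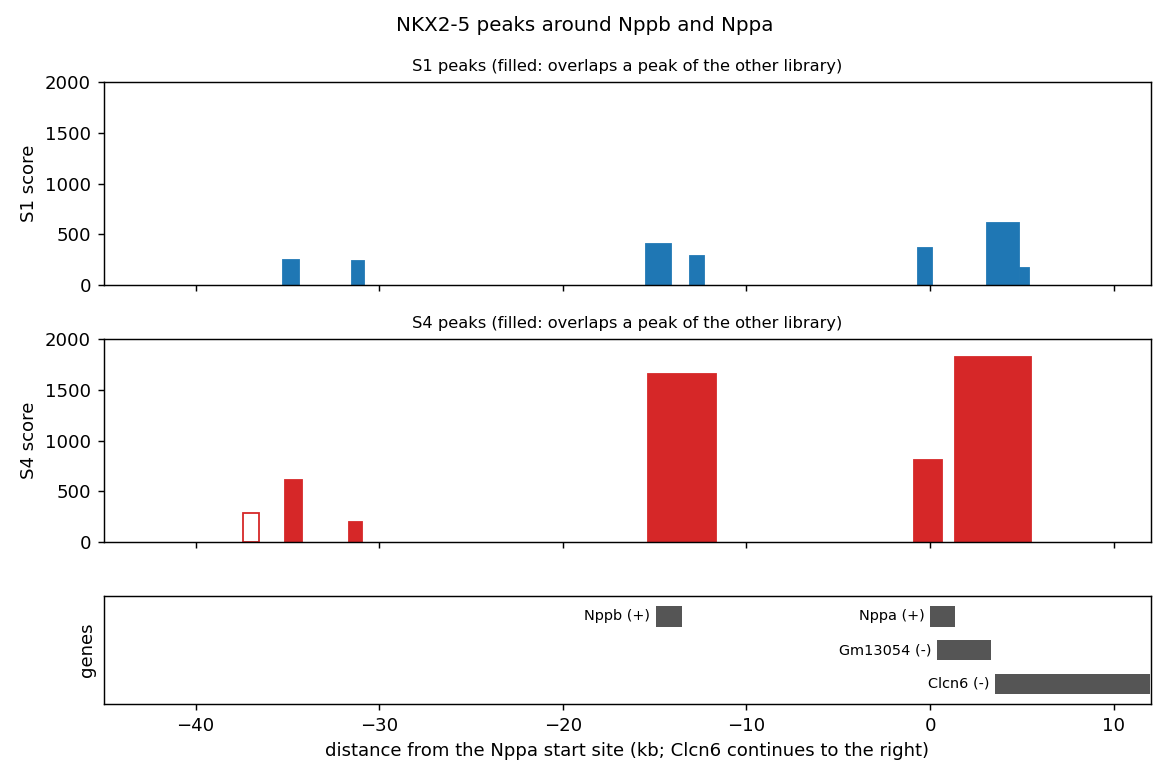
Peaks of S1 (top) and S4 (middle) as bars, with the width of the peak along the x axis (distance from the Nppa start site in kb) and the score as height, above the gene bodies with their strand. Filled bars overlap a peak of the other library, and the open S4 bar (score 281.4) does not. The highest bars of S4 cover Nppb (1653) and the stretch downstream of Nppa (1829).

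Each of the 7 S1 peaks shared at least 1 bp with a peak of S4 (100%, with an exact Clopper-Pearson 95% interval of 59.0 to 100 that covers counting error alone), against 58.9% of all S1 peaks. Of the S4 peaks, 5 of 6 overlapped an S1 peak (83.3%, 35.9 to 99.6), against 47.0% of all S4 peaks. The background share lay just under the interval for S1 and inside the one for S4, and peaks of 1 locus are not replicates. The overlaps merged into 5 shared regions. In 2 of the 5, a single S4 peak covered 2 S1 peaks, while 2.16% of all 2546 shared regions held more than 2 peaks. The overlap limit decides this comparison. A required overlap of 50% of each peak left 3 shared regions, and the share of S1 peaks with a partner was then 42.9% at the locus against 52.3% of the list, below it instead of above. With midpoints within 150 bp, 2 regions were left, and the locus was below the list in both libraries, at 28.6% against 45.2% in S1 and 33.3% against 36.7% in S4.

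The region with the highest scores lay downstream of Nppa. In S1 it comprised a peak of 1773 bp at chr4:147377911-147379683 (score 612.9) and, 25 bp further on, one of 528 bp at chr4:147379709-147380236 (score 170.4). In S4 it was 1 peak of 4117 bp at chr4:147376211-147380327 (score 1829). The S4 peak began just past the end of Nppa, and in both libraries the region covered the start of Gm13054 and part of the 3′ UTR of Clcn6. It ranked 51 of 5441 by score and 13 by width in S4, and 389 of 4418 by score and 24 by width in S1.

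The region at Nppb ranked second in both libraries. S1 had a peak of 1362 bp over the start site at chr4:147359368-147360729 (score 401.4) and a separate one of 769 bp downstream of the gene at chr4:147361737-147362505 (score 281.1). S4 had 1 peak of 3686 bp at chr4:147359480-147363165 (score 1653), which was number 17 of its list by width. It held the whole body of Nppb, 1418 bp, whereas S1 peaks covered 58.7% of it. A whole gene body lay inside S4 peaks for 9 of 22350 protein-coding genes (0.0403%) and inside S1 peaks for 6 (0.0268%). All of these were at most 1560 bp long, against a median gene length of 15427.5 bp, so the shares depend on gene length.

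The Nppa promoter region was the third. The S1 peak at chr4:147374183-147374942 (760 bp, score 366.5) ran from -0.648 to 0.111 kb relative to the start, and the S4 peak at chr4:147373976-147375467 (1492 bp, score 805.9) contained it. S1 peaks covered 8.25% of the Nppa body and S4 peaks 46.9%. Both libraries thus covered the start of Nppa, and neither covered its 3′ end.

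The upstream regions had the lowest scores. The farther one, with its S1 midpoint at -19.9 kb from the Nppb start, scored 250.1 in S1 (chr4:147339584-147340456) and 614.1 in S4 (chr4:147339725-147340610). The nearer one, with its S1 midpoint at -16.2 kb, scored 236.6 in S1 (chr4:147343340-147343984) and 195.7 in S4 (chr4:147343171-147343894), the only shared peak of the locus with a lower score in S4. The order of the 5 regions by their highest score was the same in both libraries. The single peak without a partner was an S4 peak at chr4:147337437-147338303 (867 bp, score 281.4), with its midpoint at -22.0 kb from the Nppb start. Its score lay above that of the nearer upstream region in S4.

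Scores at this locus were higher in S4 than in S1 for most overlapping peaks. The log2 ratio of S4 to S1 ranged from -0.27 to 3.42 over 7 pairs with a median of 1.58 (SD 1.17), against a median of 0.18 (SD 0.75) over all 2610 pairs. Pairs that share an S4 peak are not independent, and the highest pair of each of the 5 regions gave a median of 1.30 (SD 0.87, 4 of 5 higher in S4). The S4 score was 4.12-fold that of the S1 peak over the Nppb start and 2.20-fold at the Nppa promoter. It was 2.98-fold that of the wider S1 peak downstream of Nppa. Each score belongs to a whole peak and not to a position within it. The stretch in common made up 33.9% of the S4 peak at Nppb, 50.9% at the Nppa promoter and 43.1% downstream of Nppa. A log2 ratio at least as high as that of the pair at the Nppb start occurred in 1.99% of all pairs, and as that of the Nppa promoter in 9.50%. Of the 7 pairs, 1 had scores within 2-fold, compared with 84.0% of all pairs.

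In all 7 pairs the S4 peak was also wider than its S1 partner. The S4 peak was wider by a median of 2.32-fold over the 7 pairs, against 1.24-fold over all pairs. Pairs that share an S4 peak count it again, and the highest pair of each of the 5 regions gave a median of 1.96-fold. Width and score did not change together at the upstream regions, where the farther one had a 2.46-fold score and a 1.01-fold width in S4 and the nearer one a 0.827-fold score and a 1.12-fold width. In S1, 6 of 7 peaks were wider than the median of the list (625 bp) and 6 scored above its median (211.8). In S4, 5 of 6 were wider than its median (783 bp) and 5 scored above its median (223.2). Peak scores and widths both depend on depth, and the part of depth in the difference between the libraries was not tested.

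**Figure D2:**
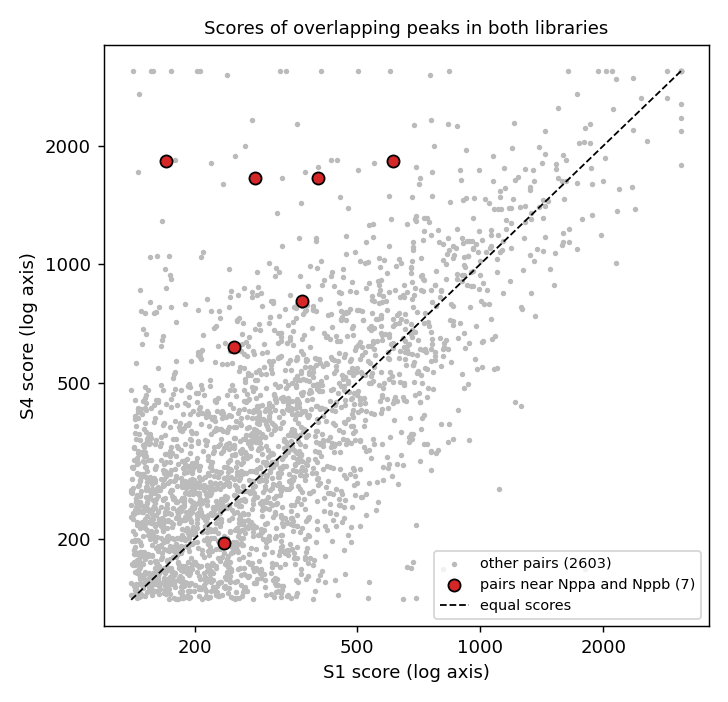
Score in S1 (x) against score in S4 (y) on log axes for each pair of overlapping peaks, with the 7 pairs near Nppa and Nppb in red, all other pairs in grey and a dashed line of equal scores. Of the red points 6 lie above the line, and the S4 peaks of 1653 and 1829 each appear at 2 S1 scores.

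The number of shared regions near Nppa and Nppb was high for a mouse gene. Each gene had 5 within 100 kb, and 72 of 22350 protein-coding genes (0.322%) had at least as many, while 24.3% had 1 or more. Neighbouring genes share regions, so these genes are not independent, and Mfn2, Plod1, 2510039O18Rik and Clcn6 were among the 72 through the regions of this locus. With a limit of 50 kb all 5 regions were still near Nppa, and the share was 0.179%. The scores of the peaks within 100 kb summed to 2319 in S1, place 166 among the genes, and to 5379 in S4, place 45.

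**Figure D3:**
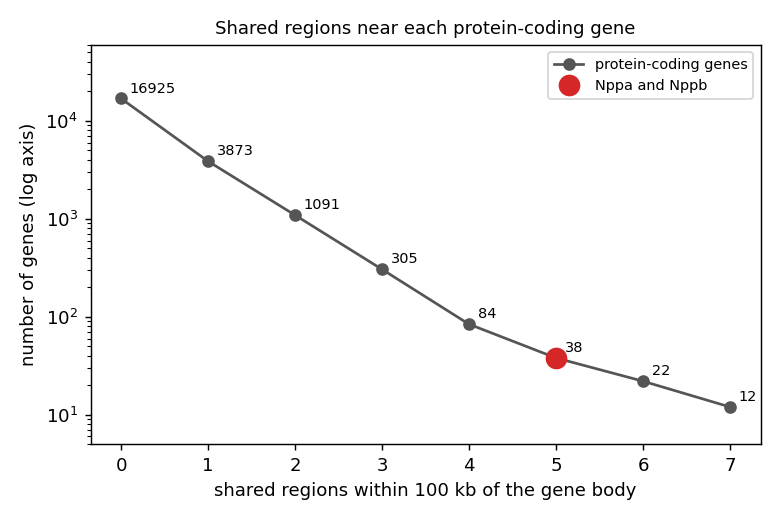
Number of protein-coding genes (log axis) by the number of shared regions within 100 kb of the gene body. Nppa and Nppb (red) had 5, as did 38 genes in all, and 16925 genes had none.

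Outside this locus, Tmem209 on chromosome 6 and Tbc1d22a on chromosome 15 had the same 7 S1 and 6 S4 peaks within 100 kb. Tnrc18 on chromosome 5 came next, with 6 and 6. Likeness was measured by the numbers of peaks and then by the summed score, over both libraries. The S4 sum at Tmem209 was 3426 and at Tbc1d22a 2075, both below that of Nppa, and at Tnrc18 it was 5682. The S1 sums of 3348, 2515 and 2440 were all above that of Nppa.

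The other genes of the natriuretic peptide pathway had fewer shared regions than Nppa and Nppb. Of 14 such genes, 7 had a shared region within 100 kb, against 24.3% of all protein-coding genes, and none had more than 2. The window is the gene body plus 100 kb on either side, so a longer gene has a larger window. Prkg1 spans chr19:30643728-31839312, while the median gene is 15427.5 bp long. Gene length was not adjusted for, so these shares are not like for like. Nppc, the gene of the third ligand CNP, had no peak within 100 kb in either library. Among the receptors, Npr1 and Npr2, the guanylyl cyclases for ANP and BNP and for CNP, each had 1 shared region, with highest scores of 160.6 (S1) and 268.4 (S4) near Npr1 and of 254.9 and 418.5 near Npr2. Npr3, the clearance receptor, had 1 S4 peak (score 153.4) and no S1 peak. These scores are below those at the Nppa promoter in the same library.

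Among the genes for processing and breakdown, Corin, Furin and Pcsk6 had 1 shared region each and Mme and Ide had none. Corin encodes the protease that cleaves pro-ANP, and it had highest scores of 321.4 in S1 and 181.9 in S4. Pcsk6, whose product activates corin, had the highest scores of the pathway list, 817.2 in S1 and 614.4 in S4. Mme and Ide encode neprilysin and insulin-degrading enzyme, which degrade the peptides. Of the cyclic GMP targets and phosphodiesterases, Pde2a had 2 shared regions and Prkg1 had 1 (741.8 and 541.2), while Prkg2, Pde5a and Pde3a had none.

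Chamber muscle genes were closer to Nppa and Nppb in the number of regions. Of 10 examined, 9 had a shared region within 100 kb, with a median of 2, and 2 had at least 5. Over all protein-coding genes, 24.3% had a shared region, the median was 0, and 0.322% had at least 5, again without adjustment for gene length. The 2 chamber genes with at least 5 were Myh6, the atrial myosin heavy chain gene, with 7, and Actc1, the cardiac actin gene, with 5. Myl2, the ventricular regulatory light chain gene, had 4, and its highest scores were 2107 in S1 and 3100 in S4. A score of 3100 is the top value of both lists, and Myh6 and Actc1 reached it in S4 too. Gja5, the connexin 40 gene, had 1, which scored 2370 in S1 and 2978 in its highest S4 peak, above any peak at the natriuretic peptide locus. Pln, the phospholamban gene, had 3 S4 peaks and no S1 peak, hence no shared region.

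**Figure D4:**
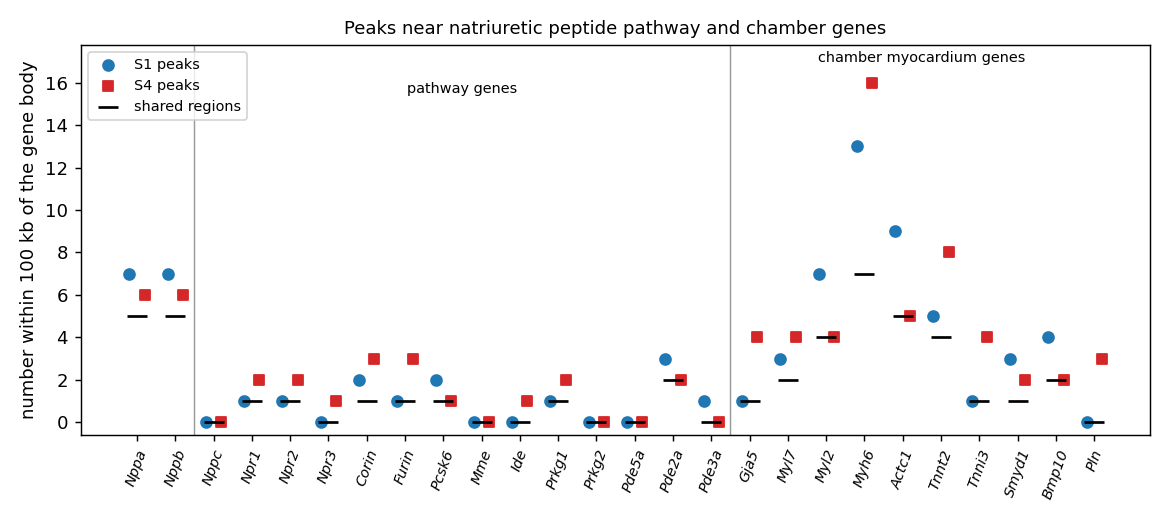
Number of S1 peaks (circles), S4 peaks (squares) and shared regions (bars) within 100 kb of each gene body, for Nppa and Nppb, 14 pathway genes and 10 chamber myocardium genes. No pathway gene had more than 2 shared regions, while Myh6 had 7.

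Motif matches were read in the 7 stretches covered by a peak of both libraries. In 300 bp around the midpoint, AAGTG was present in 3 of 7, against 75.6% of 2610 stretches in all and 52.8% of windows 2 kb to either side of them. TGACA was present in 5 of 7, against 74.7%. A match is a description of the letters and not a bound site. The stretches with AAGTG were both upstream regions and the Nppa promoter. The spaced pair GTGNTGACA lay in 1 of 7 (12.1% in all), in the nearer upstream region. Midpoints need not be summits, and in wide peaks these windows leave out most of the stretch. Over the whole stretches, 6367 bp in all, AAGTG was present in 6 of 7, against 89.4%, and was missing from the second S1 peak in the 3′ UTR of Clcn6.

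The whole stretches differed in the matches of other cardiac factors. GATAA was present in 5 of 7, against 63.9% of all 2610 stretches, GGTGTGA in 2 of 7 against 11.6%, GGAATG in 2 of 7 against 37.0% and the CArG box in 1 of 7 against 4.64%. The 7 stretches ran from 528 to 1773 bp, with a median of 760 bp against 625 bp over all stretches. Length was not adjusted for, so whole-stretch shares, that of AAGTG included, are not like for like. The Nppa promoter stretch held 3 GATAA, 2 GGTGTGA and a CArG box (the site of SRF), at -407 to -398 bp from the start. It was the only exact CArG match in the 7 stretches. Forms with a mismatch, and the parts of peaks outside the stretches, were not searched. The stretch at the Nppb start held 4 GATAA and 2 GGAATG but no GGTGTGA. The stretch downstream of Nppb held 2 GGTGTGA and no GATAA. No MEF2 box was found in any of the 7, and over all 2610 stretches it was present in 11.8%.

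NKX2-5 and MEIS1 cores lay side by side in 4 of the 7 stretches, a reading chosen after the positions were seen. There AAGTG and TGACA overlapped or were at most 1 bp apart on any strands, as in 439 of 2610 stretches (16.8%). The stretches of this locus are longer, with a median of 760 bp against 625 bp. The arrangement was different in each. In the 3′ UTR of Clcn6, TGACA followed AAGTG directly on the - strand at chr4:147379249-147379258. The other arrangements are given as read on the + strand of mm9.
Nppa promoter, 2 bp overlap on the same strand: AAGTGACA
16 kb upstream of Nppb, 2 bp overlap on opposite strands: TGACACTT
20 kb upstream of Nppb, 1 bp apart on opposite strands: TGACAGCACTT

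**Figure D5:**
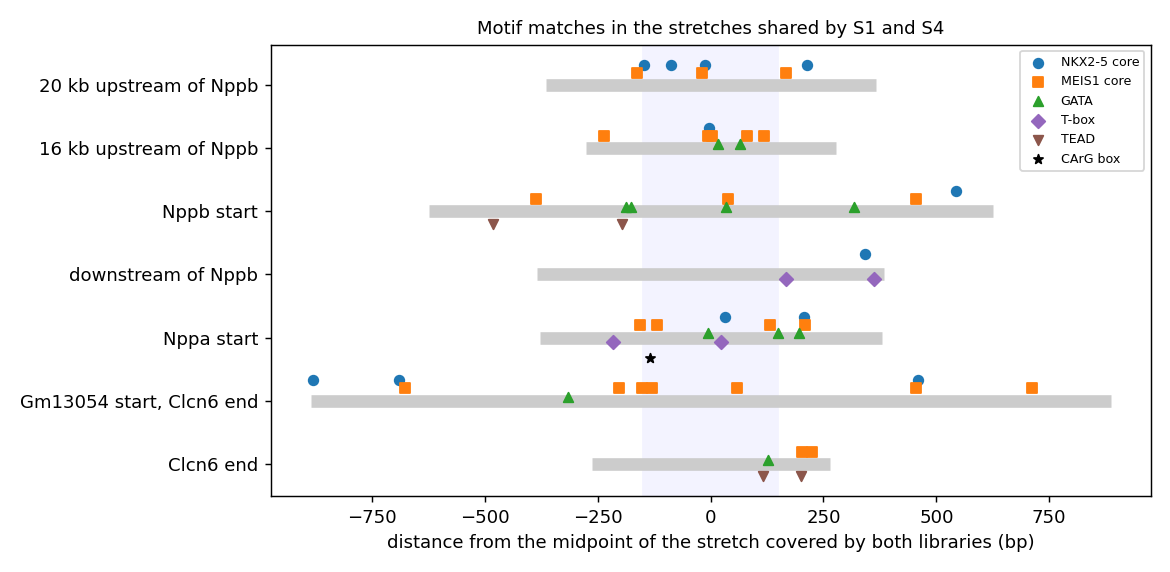
Matches of 6 motifs in the 7 stretches covered by both libraries (grey bars), by distance in bp from the midpoint of the stretch. The shaded band is the 300 bp window. NKX2-5 cores lie within it in the upstream stretches and at the Nppa start, and outside it in the stretches at Nppb and at the start of Gm13054.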

How the data were processed

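NKX2-5 ChIP-seq libraries of E11.5 mouse hearts were sequenced on a Genome Analyzer IIx, aligned to mm9 with Bowtie and peak-called with MACS 1.4, separately for each library. CASAVA 1.4 is also named in the submitters' processing notes. Caller settings, and whether the Input served as control, are not given in the sources used here. The authors deposited for each peak a start, an end and a score, 10 times the negative log10 of a p-value as read from the values. Depth is unknown.

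Groups were taken from the labels. Members and gene lists were chosen with earlier results of these data known. Starts were counted from 1, and all peaks lay within the mm9 chromosomes. Genes came from GENCODE M1, and RefSeq promoters (GRCm38.p6) were matched to mm9 by sequence for both genes. Peaks with 1 bp or more in common were called shared, and a stretch is the part covered by both peaks of a pair. Motifs were exact matches on both strands. TNAAGTG contains AAGTG, and AAGTGACA and GTGNTGACA contain TGACA. The naming rule took the 3 shared regions with the highest lower score, the shared peak nearest each start and the highest peak without a partner, besides protein-coding neighbours and 2 listed gene sets, and the remaining peaks are given too. Some results under this rule are not reported here.

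Alternatives changed the distance limit, distance reference, lowest score, overlap rule, merging, motif window, core and library. Overlap and motif counting were tested on simulated data. Python 3.11.15, numpy 2.4.6, scipy 1.17.1 and matplotlib 3.10.9 were used.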

Additional observations from a re-analysis of the deposited data

How the results depend on the processing

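Of 47 alternatives, 32 left the result in place, and 15 moved a value that had no test. No value changed sign, but the partner share at the locus against that of the whole list did turn. Counts were held in place within 1.5-fold, shares within their 95% interval and the median log2 ratio within its SD. The mean of 6.5 peaks per library ranged from 5.5 (lowest score of 200, or peaks less than 1 kb apart merged) to 6.5, and from 6 to 7 with 1 library left out. Asking for 50% overlap of each peak lowered the shared regions from 5 to 3 and the shared S1 peaks to 42.9%, and midpoints within 150 bp lowered them to 2 regions, 28.6% of S1 and 33.3% of S4 peaks. The share of genes with at least as many shared regions was 0.179% within 50 kb, 0.832% within 200 kb and 0.242% from the transcript start. The core AAGTG was found in 6 stretches over their whole length. Over the whole lists, the shares of S1 and S4 peaks with a partner were 68.3% and 50.3% with a score of at least 200, 52.3% and 42.5% with 50% overlap, and 45.2% and 36.7% with midpoints within 150 bp. The locus was thus below the list under 50% overlap in S1, and under the midpoint limit in both libraries. The pairs lost under 50% overlap were those of the 2 S4 peaks that each covered 2 S1 peaks. In them the overlap was 91.8 to 100% of the S1 peak and 12.8 to 43.1% of the S4 peak. The cause of these differences in width, and of the other changes, was not tested. The median log2 ratio stayed above 0, from 0.51 to 1.58. Unknown depth limits the reading of scores and widths between libraries.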

Other observations

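Among the 9 protein-coding genes whose whole body lay inside S4 peaks, 5 were histone genes, the others besides Nppb being annotated with RIKEN clone names. Nppb was 1418 bp long, and the 9 ranged from 78 to 1560 bp. Hist1h1e and Hist4h4 were also covered whole in S1, and Nppb was not. These genes were picked after their values were seen.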
